A study of Mus musculus with 22 samples.

Results

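The 10 mitochondrial antioxidant genes Nnt, Sod2, Gsr, Txn2, Txnrd2, Prdx3, Prdx5, Gpx1, Gpx4 and Idh2 were compared between the whole brains of 2 inbred mouse strains. They were chosen by their known function, with earlier results of these data known. Every probeset whose platform annotation named 1 of these genes alone was taken. This gave 162 probesets, of which 2, both of Gsr, were empty and 160 had values, out of 1190406 probesets with values on the array. All 10 genes were among the 15951 genes that had a gene value. The study measured total RNA from whole brains of naive adult male mice with Affymetrix Mouse Exon 1.0 ST arrays, whose probesets are spread over the exons of each gene. The mice were 12 DBA/2J (D2) and 10 C57BL/6J (B6), with 1 array per mouse. Per the labels, 24 arrays were hybridised and 2 read on another scanner were left out. The study was set up to compare alternative splicing between the strains.

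Respiration in mitochondria releases superoxide, which superoxide dismutase turns into hydrogen peroxide. Peroxiredoxins and glutathione peroxidases then reduce the peroxide with electrons from thioredoxin and glutathione. Thioredoxin reductase and glutathione reductase restore these carriers with NADPH, which mitochondria make in part by the transhydrogenase Nnt and the dehydrogenase Idh2. The brain has a high oxygen use, and its neurons depend on this chain. The C57BL/6J strain is known to carry an Nnt allele that lacks several internal exons.

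Values were the authors' log2 RMA values, and a difference of 1 is a doubling of signal. For each array, a gene value was the median over the gene's probesets that lay no lower than the middle of all probeset levels (log2 1.44). Of the 160 probesets of the 10 genes, 154 reached this level. The other 6, 1 of Sod2, 1 of Gsr, 1 of Txn2, 2 of Txnrd2 and 1 of Gpx1, were below it, and none of them was called when all probesets were tested (adjusted p from 0.502 to 0.918, limma with Benjamini-Hochberg adjustment). A difference was called at an adjusted p under 0.05 over all genes or all probesets tested. Levels are not compared between probesets or genes, since each probe binds with its own strength.

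Of the 10 genes, Gsr and Nnt were called, both higher in D2, and the other 8 were not called in either direction. Over all 15951 genes 10.9% were called, 2.56% higher and 8.29% lower in D2. The median difference of the 10 genes was 0.020, against -0.05 over all genes. The gene values of all 10 genes overlapped between the strains, and of all genes 0.307% separated them with D2 higher and 0.871% with D2 lower. Among the 154 probesets, 16 were called higher and 3 lower, which is 12.3% against 3.91% over all probesets tested (1.67% higher, 2.24% lower). Over the probesets that carry 1 gene symbol, 4.06% were called (1.27% higher, 2.79% lower). These 19 probesets belonged to 3 genes, Gsr (11), Nnt (7) and Sod2 (1), so they are not independent of each other. In whole brain, fewer cells of a type and less RNA per cell cannot be told apart.

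**Figure D1:**
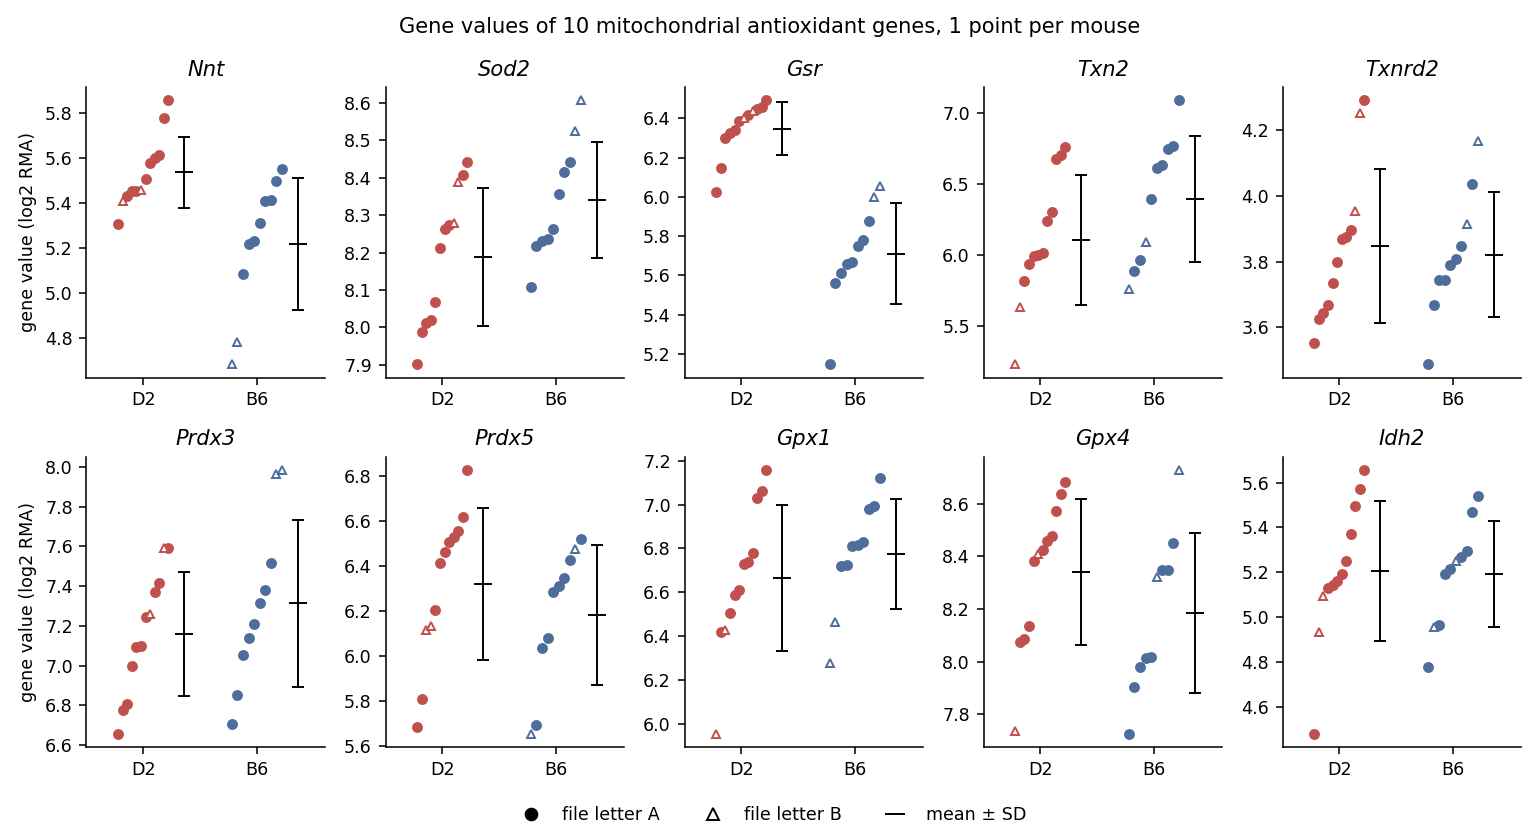
Gene values (log2 RMA, vertical axis, own range in each panel) of the 10 genes in 12 D2 mice (left, red) and 10 B6 mice (right, blue), with the mean and SD in black. Circles are arrays with file letter A and open triangles arrays with letter B. Gsr shows the clearest separation, with D2 at 6.03 to 6.49 and B6 at 5.15 to 6.06, and the other genes overlap more.

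Superoxide is removed in the mitochondrial matrix by the manganese enzyme encoded by Sod2, on chromosome 17. Its gene value had a lowest, median and highest value of 7.90, 8.24 and 8.44 in D2, and 8.11, 8.31 and 8.61 in B6. The ranges overlapped. The difference was -0.15 ± 0.081 (SE, 95% interval -0.32 to 0.013) and was not called (adjusted p = 0.239, limma with Benjamini-Hochberg adjustment). The gene value stood on 24 probesets, and their own differences had a median of -0.04, closer to 0 than that of the gene value. With the mean over probesets in place of the median the sign turned, to 0.090, and the gene was again not called. That mean takes in probeset 5152772, described next, at 2.91, while the other 23 differed by -0.19 to 0.40.

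A single Sod2 probeset stood apart from the rest of the gene. Probeset 5152772 had values of 5.43, 6.09 and 6.45 (lowest, median, highest) in D2, and 1.41, 3.25 and 4.01 in B6. Every D2 mouse lay above every B6 mouse, which 0.297% of all probesets showed, while 0.473% separated the strains the other way. The probeset averaged 6.00 ± 0.36 in D2 and 3.09 ± 0.92 in B6 (SD, n = 12 and 10), a 7.53-fold difference (log2 2.91 ± 0.268 SE, adjusted p = 2.19e-08, limma). The other 23 probesets of Sod2 differed by -0.19 to 0.40, and none was called (smallest adjusted p = 0.361). The splicing index subtracts, array by array, the gene value from that of the probeset, and a call required an adjusted p under 0.05 with a difference of at least 0.5. For this probeset it was 3.07 (adjusted p = 2.25e-07), and it was called in all 8 alternative settings that gave a value.

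As a description within strains over the 22 arrays, this probeset correlated at -0.14 with the median of the other Sod2 probesets, and the other 23 correlated with theirs at -0.32 to 0.87. Its B6 values fell into 5 arrays at 3.77 to 4.01 and 5 at 1.41 to 2.73, while its D2 values spanned 5.43 to 6.45. The array was designed on the B6 reference sequence, so a strain variant under a probe can change the signal and cannot be told apart from exon use. Where the probeset lies along the transcript was not analysed here.

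The sequence before the Sod2 start is shown because it holds GC boxes, a sequence that the factor Sp1 can bind, and because Sod2 carries the widest single probeset difference of the 10 genes. It holds 250 bases that end at the base before the annotated start, at chr17:13007589-13007838 on the + strand of GRCm38.p6, from RefSeq. Capitals mark the 4 matches to GGGCGG.
Sod2 upstream window: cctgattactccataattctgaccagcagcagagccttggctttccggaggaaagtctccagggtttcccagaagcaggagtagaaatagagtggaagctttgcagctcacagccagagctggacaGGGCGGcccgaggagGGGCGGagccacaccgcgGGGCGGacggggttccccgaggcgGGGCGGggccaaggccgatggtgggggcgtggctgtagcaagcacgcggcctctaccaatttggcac
GGGCGG was searched on both strands and stood in 32.7% of the 32851 windows of this length. The core TGACNNNGC of the antioxidant response element, searched likewise, stood in 10.2%. Windows were found for 8 of the 10 genes, all but Nnt and Gsr, 11 windows in all, since Gpx4 had 4. The count of GC boxes was 4 for Sod2, 2 for Txn2, 1 each for Txnrd2, Prdx3 and Prdx5, 0 for Gpx1 and 2 for Idh2, and 0, 2, 2 and 1 in the windows of Gpx4. None of these 11 windows held the antioxidant response core, and nothing was read for Nnt and Gsr. A match describes the letters in the window and shows no binding, and a missing match concerns this window alone.

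**Figure D2:**
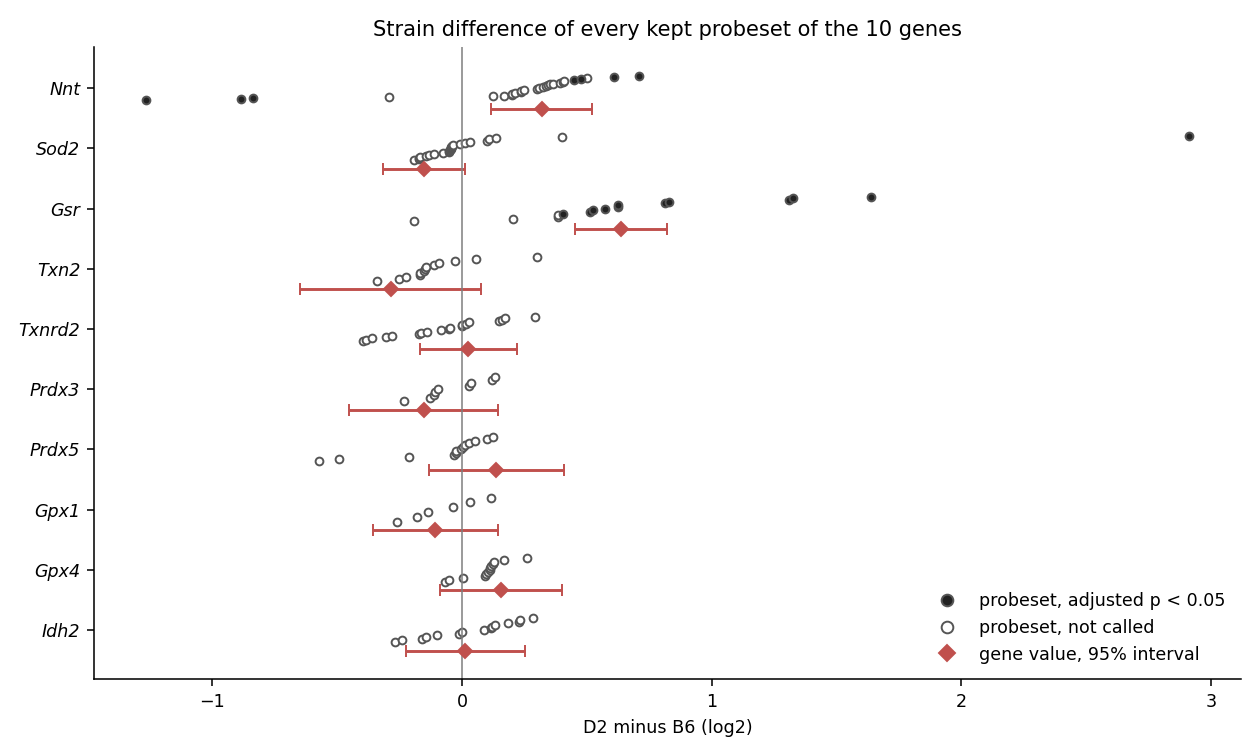
Difference D2 minus B6 (log2, horizontal axis) of every kept probeset of the 10 genes (circles, filled at an adjusted p under 0.05) and of the gene value with its 95% interval (red diamond). The called points lie in Nnt, Sod2 and Gsr: 16 to the right of 0 and 3, all of Nnt, to the left, with the Sod2 probeset 5152772 farthest right at 2.91.

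Glutathione is returned to its reduced form by glutathione reductase, encoded by Gsr on chromosome 8. Its gene value was 6.03, 6.40 and 6.49 (lowest, median, highest) in D2, and 5.15, 5.71 and 6.06 in B6. The ranges touch at their edges: 1 D2 mouse, at 6.03, lay below the highest B6 mouse. Gsr averaged 6.35 ± 0.14 in D2 and 5.71 ± 0.26 in B6 (SD, n = 12 and 10), 1.56-fold higher in D2 (95% interval 1.37 to 1.77, log2 0.64 ± 0.089 SE, adjusted p = 1.26e-05, limma). The difference kept its direction under all 11 alternatives and its call in 10. The exception was the 4 arrays of letter B alone, described further on.

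Of the 15 kept Gsr probesets, 14 were higher in D2 and 11 were called, with none called lower. Their differences ran from -0.19 to 1.64 with a median of 0.57. In 3 probesets every D2 mouse lay above every B6 mouse. Of all probesets tested, 0.297% separated the strains in this direction and 0.473% in the other. The largest difference was that of probeset 5129794, with 5.04, 5.95 and 6.44 (lowest, median, highest) in D2 and 3.12, 4.35 and 5.17 in B6, 3.12-fold higher in D2 (log2 1.64 ± 0.200, adjusted p = 3.19e-06, limma), though its ranges overlapped. Probeset 4509590 had 8.61, 8.89 and 9.13 in D2, and 7.33, 7.57 and 7.71 in B6, without overlap. It was 2.51-fold higher in D2 (adjusted p = 9.17e-11, limma).

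Probeset 4314293 had 7.05, 7.44 and 7.78 in D2 and 5.77, 6.15 and 6.22 in B6, again without overlap, and it was 2.48-fold higher in D2 (adjusted p = 1.91e-09, limma). The third probeset without overlap, 5235540, had 6.88, 7.22 and 7.31 in D2 and 6.06, 6.32 and 6.74 in B6, and was 1.78-fold higher in D2. The other 7 called Gsr probesets were higher by 0.41 to 0.82. The splicing index was called higher in D2 for 5129794 (1.00, adjusted p = 0.00121), 4509590 (0.69, adjusted p = 0.00112) and 4314293 (0.67, adjusted p = 0.00198), so these 3 rose by more than the gene as a whole. Over all probesets of named genes, 0.894% had an index called higher and 0.772% lower. With the array median as a covariate the index of 4509590 (0.37, adjusted p = 0.292) and of 4314293 (0.56, adjusted p = 0.155) was no longer called. That covariate differs between the strains, as given further on, which limits any call with it.

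**Figure D3:**
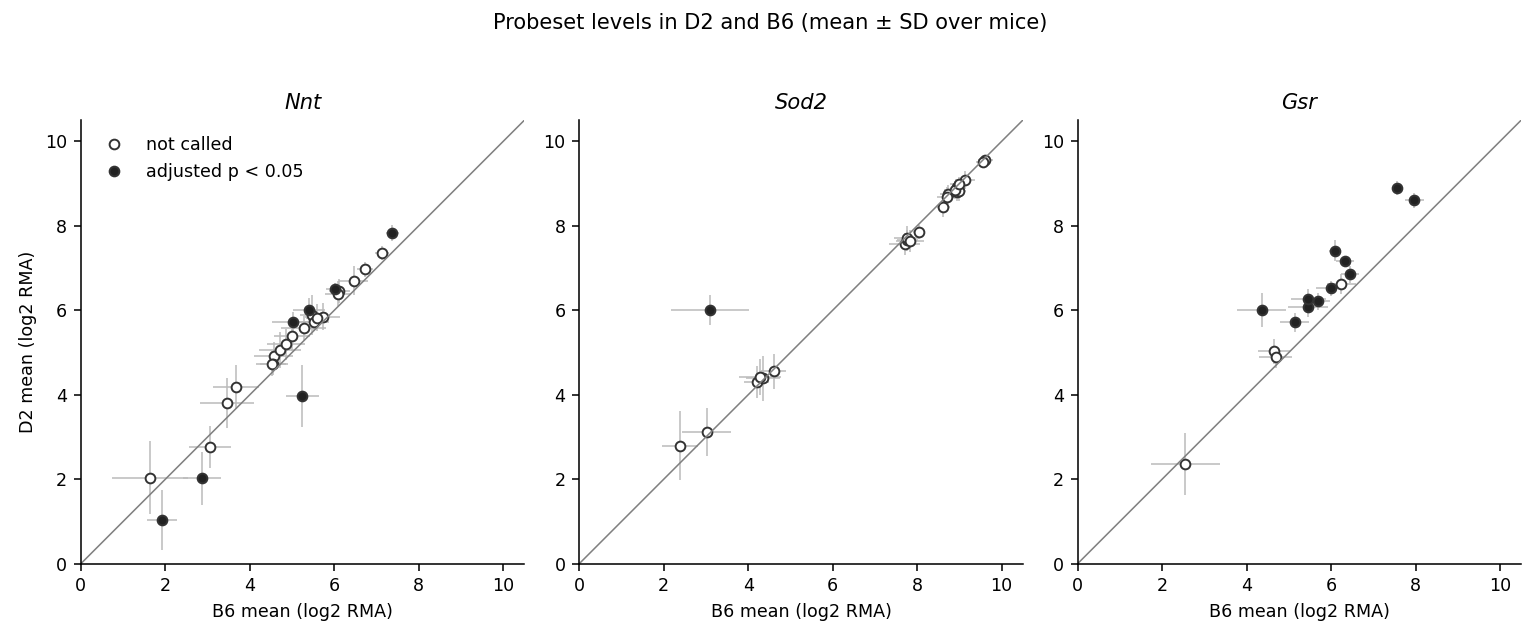
Mean level of each kept probeset in D2 (vertical axis) against its mean in B6 (horizontal axis), log2 RMA, for Nnt, Sod2 and Gsr, with SD bars over mice and the line of equal level. Filled points are called. In Gsr 14 of 15 points lie above the line, in Nnt 23 of 27, and in Sod2 1 point, at 6.00 in D2 and 3.09 in B6, lies far above it.

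NADPH for both arms comes in part from Nnt, on chromosome 13, a transhydrogenase of the inner membrane that uses the proton gradient to make it. Its gene value was 5.31, 5.48 and 5.86 (lowest, median, highest) in D2, and 4.68, 5.27 and 5.55 in B6, with overlap. Nnt averaged 5.54 ± 0.16 in D2 and 5.22 ± 0.29 in B6 (SD, n = 12 and 10), 1.25-fold higher in D2 (95% interval 1.08 to 1.44, log2 0.32 ± 0.098 SE, adjusted p = 0.0361, limma). The call ended under 4 of the 11 alternatives, while the direction held in all. The difference was 0.17 with the mean over probesets (adjusted p = 0.0754) and 0.22 on the letter A arrays alone (adjusted p = 0.115).

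The 27 Nnt probesets moved in both directions. In 23 the D2 mean was higher, and 4 were called higher and 3 lower. The largest called rise was that of probeset 4416438, with 5.36, 5.70 and 6.10 in D2 and 4.42, 5.12 and 5.70 in B6 (log2 0.71 ± 0.161 SE, adjusted p = 0.00854, limma). Probeset 4651135 was higher by 0.61 ± 0.143 (adjusted p = 0.0118) and 5599639 by 0.48 ± 0.098 (adjusted p = 0.0035). No Nnt probeset was higher in D2 by more than 0.71, and none separated the strains without overlap. Of the 20 that were not called, 19 were higher in D2, within -0.29 to 0.50. None of the 4 that rose had an index call.

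The 3 falls had larger differences than the rises. Probeset 4443601 had 2.45, 3.90 and 4.91 (lowest, median, highest) in D2, and 4.56, 5.28 and 5.89 in B6. It was lower in D2 by a log2 difference of -1.27 ± 0.242 (adjusted p = 0.00158, limma), and its splicing index differed by -1.59 (adjusted p = 2.82e-05). The ranges overlapped. Probeset 5540127 averaged 2.03 ± 0.63 in D2 and 2.86 ± 0.45 in B6, with an index difference of -1.16 (adjusted p = 0.0071). Probeset 4759996 averaged 1.04 ± 0.71 in D2, below the level used to keep probesets, and 1.93 ± 0.35 in B6, with an index difference of -1.21. It was kept only through its B6 level, so its fall is given as a description.

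These falls are the 3 index calls lower in D2 among the 10 genes, against 4 higher, and together 4.55% of their 154 probesets had an index call, against 1.67% over all probesets of named genes. Without 4759996 there were 2 index calls lower, 3.92% of 153 probesets had one, and 11.8% were called on their own level. With the array median as a covariate, probeset 4443601 (-1.11, adjusted p = 0.137), 5540127 (-1.18, adjusted p = 0.0625) and 4759996 (-0.40, adjusted p = 0.678) lost the call of their own level, as did the rises 4651135 (0.61, adjusted p = 0.186) and 5599639 (0.39, adjusted p = 0.214, limma). The index calls of 4443601 (-1.49, adjusted p = 0.017) and 5540127 (-1.55, adjusted p = 0.024) held there, and that of 4759996 did not. The array median itself was higher in D2 (1.475 ± 0.018) than in B6 (1.437 ± 0.018, mean and SD). Strain and covariate thus overlap, so a call lost with it need not mean a smaller difference. Other alternatives ended calls of own level too. Without the filter that of 5540127 was lost (adjusted p = 0.0504, limma). On letter A arrays alone those of 4759996 (adjusted p = 0.089) and of the rise 4416438 (adjusted p = 0.092) were lost. Without D2 replicates 13, 14 and 19 that of 4759996 was lost again (adjusted p = 0.054, limma). Of 9 alternatives, 5540127 was called in 6 and 4759996 in 5, and 4443601 in 8 of 10. A D2 variant under a probe and a change of exon use cannot be told apart for the 3 falls. Which Nnt probesets lie in the exons that the C57BL/6J allele lacks was not analysed here.

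**Figure D4:**
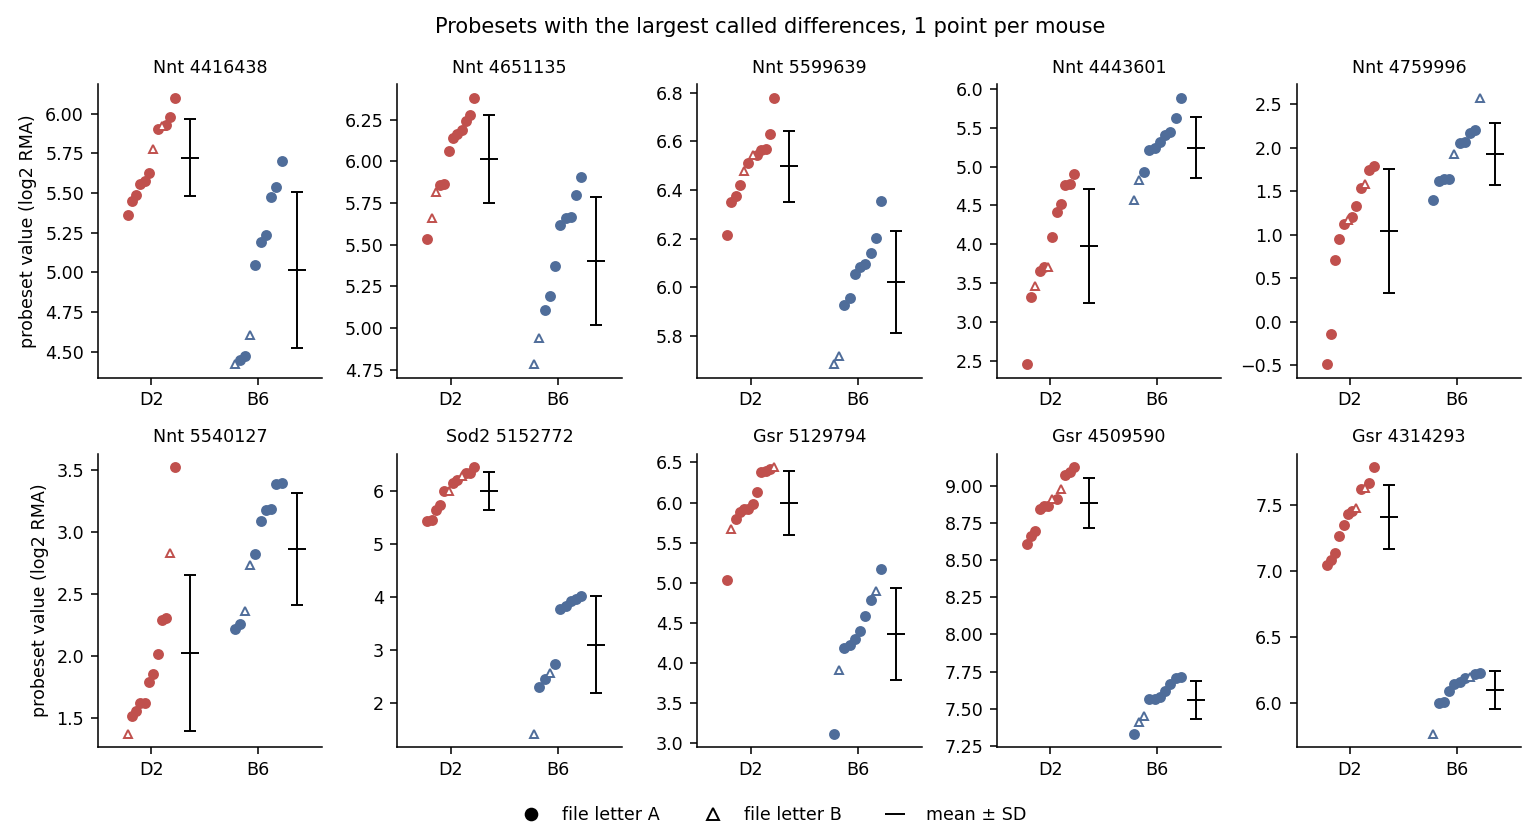
Values (log2 RMA, vertical axis, own range in each panel) of the Nnt, Sod2 and Gsr probesets with the largest called differences, 1 point per mouse, D2 left and B6 right, with mean and SD in black and open triangles for file letter B. Sod2 5152772, Gsr 4509590 and Gsr 4314293 separate the strains completely, while Nnt 4443601, 4759996 and 5540127 are lower in D2 with overlap.

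Another source of NADPH, the isocitrate dehydrogenase Idh2 on chromosome 7, had a gene value of 4.48, 5.18 and 5.66 in D2 and 4.78, 5.23 and 5.54 in B6. The strains differed by 0.014 ± 0.116 (SE, 95% interval -0.22 to 0.25, adjusted p = 0.955, limma), and none of its 15 probesets was called. Its probesets differed by -0.27 to 0.28, with 8 higher and 7 lower in D2.

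Peroxide is removed by the peroxiredoxins Prdx3, of the matrix, and Prdx5, of mitochondria and other compartments, both on chromosome 19, and by the selenium-containing glutathione peroxidases Gpx1, on chromosome 9, and Gpx4, on chromosome 10, of which Gpx4 acts on lipid peroxides in membranes. Prdx3 had 6.65, 7.17 and 7.59 (lowest, median, highest) in D2, and 6.71, 7.26 and 7.98 in B6, a difference of -0.15 (95% interval -0.45 to 0.15). Prdx5 had 5.68, 6.44 and 6.83 in D2, and 5.65, 6.30 and 6.52 in B6, a difference of 0.14 (-0.13 to 0.41). Ranges overlapped for both.

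Gpx1 had 5.95, 6.67 and 7.16 in D2, and 6.28, 6.81 and 7.12 in B6, a difference of -0.11 (95% interval -0.36 to 0.14). Gpx4 had 7.73, 8.42 and 8.68 in D2, and 7.72, 8.17 and 8.73 in B6, a difference of 0.16 (-0.09 to 0.40). None of these 4 genes was called (adjusted p from 0.437 to 0.622, limma), and the intervals do not show that the strains are alike. Probeset by probeset, Gpx4 leaned to D2, with 11 of 13 higher there (-0.07 to 0.26), and Prdx3, Prdx5 and Gpx1 were mixed, with 4 of 9, 6 of 13 and 2 of 6 higher in D2. Their ranges were -0.23 to 0.13 for Prdx3, -0.57 to 0.12 for Prdx5 and -0.26 to 0.11 for Gpx1.

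Thioredoxin 2, encoded by Txn2 on chromosome 15, carries electrons to Prdx3, and thioredoxin reductase 2, a selenoprotein encoded by Txnrd2 on chromosome 16, restores it. Txn2 had 5.23, 6.01 and 6.76 (lowest, median, highest) in D2, and 5.76, 6.50 and 7.09 in B6, a difference of -0.28 (95% interval -0.65 to 0.078, adjusted p = 0.325, limma). Txnrd2 had 3.55, 3.83 and 4.29 in D2, and 3.49, 3.80 and 4.17 in B6, a difference of 0.026 (-0.17 to 0.22, adjusted p = 0.895). The gene value of Txn2 had the widest spread between mice of the 10 genes, with an SD of 0.46 in D2 and 0.44 in B6. This is the spread of a median: over its kept probesets the SD ran from 0.18 to 1.00 in D2 and from 0.17 to 0.81 in B6. Of its 13 kept probesets 11 were lower in D2 (-0.34 to 0.30), and of the 19 of Txnrd2 12 were lower (-0.40 to 0.29). The 7 genes other than Nnt, Sod2 and Gsr had 88 kept probesets, with differences of -0.57 to 0.30 and 0 calls (smallest adjusted p = 0.193).

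The names of the arrays carry a letter, A or B, whose meaning the labels do not state, and both strains held both: 10 A and 2 B in D2, 8 A and 2 B in B6. With strain in the fit, letter B was lower than letter A for Nnt (-0.36, adjusted p = 0.0226), Txn2 (-0.70, adjusted p = 0.0135) and Gpx1 (-0.54, adjusted p = 0.00374) and higher for Prdx3 (0.57, adjusted p = 0.0155, limma). The remaining 6 genes were not called. The 2 highest B6 values of Prdx3, 7.96 and 7.98, were letter B arrays, against a highest value of 7.52 on B6 letter A arrays. Txn2 was at 5.23 and 5.64 on the D2 letter B arrays, below all D2 letter A arrays (5.82 to 6.76). Over all genes 14.7% were called for the letter.

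The 2 lowest B6 values of Nnt, 4.68 and 4.78, were its letter B arrays. On letter A arrays Nnt averaged 5.56 in D2 and 5.34 in B6, a difference of 0.22, and on letter B arrays it averaged 5.43 in D2 and 4.73 in B6, a difference of 0.70. With the letter as a block the Nnt difference was 0.31 and was called (adjusted p = 0.0127, limma). The change of the Nnt difference between letters was 0.48 (unadjusted p = 0.0178, adjusted p = 0.994 over all genes, limma). Gsr differed in the same direction within each letter. On letter A arrays it spanned 6.03 to 6.49 in D2 and 5.15 to 5.88 in B6. On letter B arrays it spanned 6.40 to 6.44 in D2 and 6.00 to 6.06 in B6. The share of all genes whose strains separate within a letter was not counted. Letter B alone has 2 arrays per strain, and there the Gsr difference of 0.39 was not called (adjusted p = 0.427, limma). For Gpx4 the difference was 0.29 on letter A and -0.45 on letter B arrays, and this change was not called either (unadjusted p = 0.013, adjusted p = 0.994, limma). None of the 10 genes had a called change of its strain difference between letters.

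**Figure D5:**
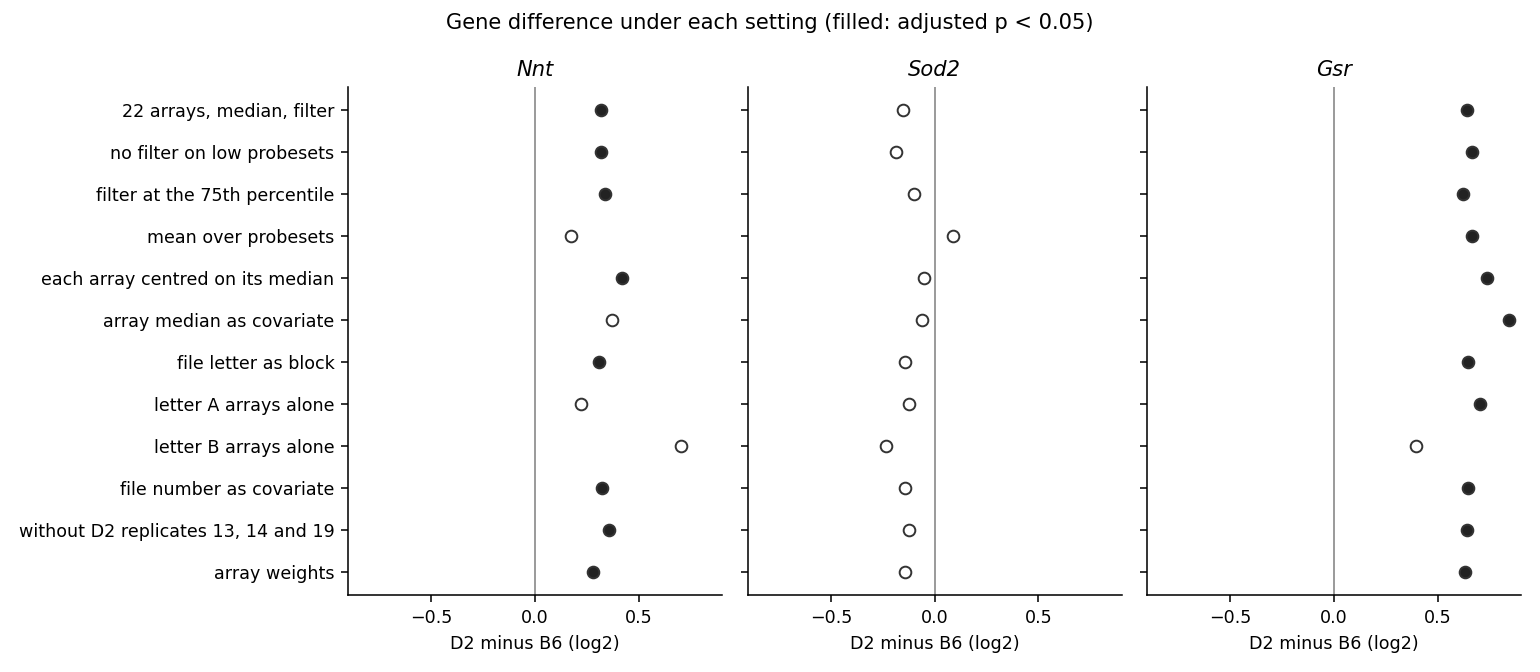
Gene difference D2 minus B6 (log2, horizontal axis) for Nnt, Sod2 and Gsr in the reported setting (top) and under the 11 alternatives, filled where the adjusted p was under 0.05. Gsr is filled in every setting except the letter B arrays alone, Nnt is open in 4 of the alternatives, and Sod2 is never filled and changes sign with the mean over probesets.

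Genes of the surrounding pathways were counted from 7 lists of 65 genes, of which 62 were measured. None was called higher and 8 lower in D2, 12.9% against the 10.9% of all genes called in either direction. Over all genes 8.29% were called lower and 2.56% higher. The median difference of the 62 genes was -0.09. Of 8 measured mitochondrial NADPH genes 3 were lower: Me2 (-0.47, adjusted p = 0.00877), the mitochondrial malic enzyme, and the folate pathway enzymes Mthfd2l (-0.44, adjusted p = 0.0282) and Mthfd2 (-0.42, adjusted p = 0.00452, limma). Of 6 cytosolic NADPH genes only Me1, a malic enzyme, was called (-0.32, adjusted p = 0.0302).

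Among 12 other genes of superoxide and peroxide removal, only the glutathione peroxidase Gpx2 was called (-0.86, adjusted p = 0.000625). Of 16 thioredoxin and glutaredoxin genes the methionine sulfoxide reductase Msrb2 was called (-0.34, adjusted p = 0.0401, limma). In glutathione synthesis, 1 of 5 genes was called, Gclm, the modifier subunit of the enzyme of the first step (-0.46, adjusted p = 0.000614). Of 8 stress regulators and targets, Nqo1, a quinone reductase, was called (-0.49, adjusted p = 0.024). None of 7 selenoprotein synthesis genes was called, with Pstk at 0.25 and Sepsecs at -0.19.

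None of 11 measured genes of mitochondrial content was called either, with Idh3a at -0.20 and Tfam at -0.17. The mean level of that list was 7.15 to 7.58 over the D2 arrays and 7.15 to 7.78 over the B6 arrays. Of the cell markers, Snap25 of neurons averaged 10.0 in D2 and 10.1 in B6, and Mbp of myelin 8.34 in D2 and 8.41 in B6, neither called. In the same lists Map2 (-0.38, adjusted p = 0.00362) and Mobp (-0.78, adjusted p = 7.58e-08, limma) were lower in D2. Called lower in D2 were 1 of 5 neuronal, 3 of 7 astrocyte (1 other was higher), 1 of 5 oligodendrocyte, 2 of 7 microglial, 2 of 5 endothelial, 3 of 6 choroid plexus and 2 of 3 red blood cell markers, and 0 of 2 pituitary markers were called. Over the 8 marker lists 35.0% of 40 measured genes were called lower and 2.50% higher, against 8.29% lower and 2.56% higher over all genes. The widest was Hbb-b1, at -4.12. The part of these markers in the Gsr and Nnt differences was not tested.

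In the gene order of GRCm38.p6, up to 3 genes were taken on each side of each member. Of these 59 neighbours 5 were called, 8.47% against the 10.9% of all genes, so their share was near the background. Beside Gsr, which was higher in D2, Dctn6 (-0.86, adjusted p = 0.00142) and Ppp2cb (-0.27, adjusted p = 0.0359, limma) were lower in D2. Beside Nnt, 4833420G17Rik was lower by -1.70 (adjusted p = 7.76e-10), and the other 5 genes were not called. None of the 6 neighbours of Sod2 was called. Beside Prdx3, Dennd10 was higher in D2 (0.36, adjusted p = 0.0226), and beside Idh2, Gdpgp1 was lower (-0.65, adjusted p = 0.00328).

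As a description across 22 arrays, which share strain and letter, the gene whose values varied most like Nnt within strains was Aatk (r = 0.86), followed by Cdk20 (0.86), Adam11 (0.85), Mroh1 (0.85) and Plcb3 (0.84). On the 18 letter A arrays these were 0.71 to 0.79, at ranks 6 to 61, with Aatk at 61. For Sod2 the most alike were Hikeshi (0.88), Slc25a32 (0.87), Dhx36 (0.87), Psmd12 (0.87) and Slc12a2 (0.86). On letter A arrays these 5 were at 0.81 to 0.89 and at ranks 4 to 78. Among the 10 genes themselves, the correlation within strains was highest for Txn2 and Gpx1 (0.86, and 0.75 on letter A arrays) and lowest for Sod2 and Idh2 (-0.55).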

How the data were processed

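The authors deposited log2 values per probeset, for which the submitters' processing notes name RMA, affy 1.12.2 and R 2.6.0. RMA's options, the probeset definition and the build of the array are not given in the sources used here. Medians over all probesets of an array were 1.45 to 1.51 in D2 and 1.41 to 1.47 in B6. Precision is limited by the number of arrays, as intensities carry no read depth. The p-values set each strain difference against the spread between arrays within strains, with 1 array per mouse. From these values, gene values and splicing indices were computed and compared using limma 3.58.1 under R 4.3.3 (eBayes after lmFit, D2 minus B6, p-values adjusted after Benjamini-Hochberg over all features), for genes with at least 3 kept probesets. Probesets whose mean over the 22 arrays reached the median of such means were kept, 595203 in all. GEO's platform annotation gave 1 symbol for 311384 probesets, several for 6385, which named no gene, and none for 883569. Of 22276 symbols, 17991 were current in the GRCm38.p6 gene table, 4224 were updated through a synonym and 61 were kept as given.

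The 10 genes, the lists and the rules were chosen with earlier results of these data known. All 10 genes are named with their values. Per gene, up to 3 called probesets with the largest rise and 3 with the largest fall are named, with index calls in Nnt, Sod2 and Gsr up to 4 each way. Gsr 5235540 was named after its values were seen. Each list is counted in full, with up to 4 called genes named, or up to 2 others where none was called; marker lists are given by counts, with Snap25, Mbp, Map2, Mobp and Hbb-b1 named after their values were seen. The fit of the array letter as an effect of its own was chosen after seeing the data. The steps were tested on simulated data with 50 known changes of each size. At log2 0.5, 78% of gene, 2% of probeset and 8% of index changes were recovered. At log2 1 these shares were 98%, 64% and 60%. At log2 0.25 they were 20%, 0% and 0%, so small differences can go uncalled. Of 595203 probesets, 80 were called in the simulated data, against 23265 in the measured data. The adjusted p depends on how many features change, so these shares describe the simulated data alone. The share recovered in the measured data was not tested. Alternatives covered the filter, the gene summary, scaling, the array letter and number, 3 D2 mice and array weights. Figures were drawn with matplotlib 3.10.9.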

Additional observations from a re-analysis of the deposited data

Results flagged for a closer look

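In 5 of 49 sets of values checked, each from the 10 B6 mice, 1 mouse lay far from the others by Dixon's test at its 95% critical value. Only the critical value for 10 mice was used, so the 12 D2 mice were not checked. Chance marks about 1 group in 20. For Gsr probeset 4314293, 1 B6 mouse was at 5.77, with the nearest at 6.00, and every D2 mouse was higher than all B6 mice. Alas2, a heme synthesis enzyme of red blood cell precursors, was at 3.45 in the same mouse, B6 replicate 6, with the nearest at 4.22. In B6 replicate 9, Gh (growth hormone) was at 8.45, with the nearest at 3.13, Pomc (the precursor of pituitary and hypothalamic peptides) at 3.58, with the nearest at 2.41, and Aldoc (an aldolase of astrocytes) at 10.41, with the nearest at 10.52. Among the unchecked D2 mice Gh and Pomc varied more than in B6. Their SD was 2.58 and 1.61 in D2, against 2.06 and 0.54 in B6.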

How the results depend on the processing

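No paired analysis was possible because the replicate numbers of D2 and B6 come from separate mice and do not pair them. Of the 10 genes, the number called was 2 in the reported setting, 1 with the mean over probesets, with the array median as a covariate and on letter A arrays alone, and 0 on letter B arrays alone. The number of all genes called was 1732 (409 higher in D2), against 2715 with the mean over probesets, 489 with the covariate and 74 on letter B arrays alone. Another alternative subtracted from every gene value the median gene value of the same array, which is not the probeset median given above. It left 1777 genes called, of which 1027 were higher in D2. The split between higher and lower calls thus depends on scaling, while Gsr and Nnt were higher in both settings. Nnt was not called with the mean (0.17), the covariate (0.37), letter A alone (0.22) or letter B alone (0.70), and Gsr was not called on letter B alone (0.39). Among uncalled genes the sign turned for Txnrd2 without the filter (-0.056) and with the mean (-0.083), Prdx5 with the 75th percentile filter (-0.00070) and the mean (-0.080), Gpx1 with the 75th percentile filter (0.042), Sod2 with the mean (0.090), Prdx3 with the covariate (0.24), Gpx4 on letter B alone (-0.45), and Idh2 on letter B alone (-0.090) and without D2 replicates 13, 14 and 19 (-0.0011). The cause was not tested. Called probesets of the 10 genes numbered 19, against 9 with the covariate and 0 on letter B alone, and index calls 7, against 4 with the covariate. The Sod2 probeset 5152772 was called in 9 of 10 alternatives, the exception being letter B alone (4.18). Letter B arrays number 2 per strain, which limits any call there. The array median over all probesets was on average higher in D2 than in B6, which limits calls with the covariate.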
